A study of Mus musculus with 2 samples.

Results

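Smooth muscle cells of the mouse lung were examined in an allergen model, in 1 library from mice labelled Plaur KO and 1 library from wild-type (WT) mice. Plaur encodes uPAR, the cell-surface receptor of the protease urokinase, and the title of the series names airway hyperresponsiveness and eosinophil migration as its subject. Lung suspensions had been sorted for cells without CD45.2, a surface protein of blood-derived cells, and read cell by cell in droplets from the 3' ends of their RNA, where molecules are counted by unique molecular identifiers (UMIs). Cells entered when they had at least 500 genes, at most 15% mitochondrial UMIs, at least 2 UMIs of Acta2 and at least 3 of the 7 muscle genes Myh11, Cnn1, Des, Actg2, Lmod1, Synpo2 and Pln. They could hold at most 2 of 5 fibroblast genes, at most 1 of 3 mesothelial genes and at most 1 of 5 endothelial, AT2 and immune genes. AT2 cells are the surfactant-making epithelial cells of the alveolus. By this rule 63 of 19951 kept cells were smooth muscle cells, out of 21547 deposited barcodes.

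The KO-labelled library gave 18 smooth muscle cells and the WT library 45. Both groups came from mice of the strain given as C57B6/J, and the KO mice were Plaur-/-. All mice of both genotypes had been given ovalbumin together with lipopolysaccharide to sensitise them on day 0 and again on day 7, and breathed an ovalbumin aerosol on day 14, so no group without allergen enters here. The series had 8 mice per genotype, and neither the number of mice pooled per library nor their age is given in the labels. With 1 library per genotype no difference below has a replicate check, and no test or p-value was computed. The intervals are exact 95% intervals for counting error only, and each ratio has the KO-labelled cells on top and the WT cells below.

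Smooth muscle cells shorten when calcium entry or receptor signals activate myosin light chain kinase, and the RhoA pathway holds the contraction by slowing the opposing phosphatase. In the lung they ring the airways, where their contraction narrows the bronchi, and they line the pulmonary arteries and veins. Myocardin and serum response factor switch on their contractile genes through DNA sites called CArG boxes.

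The libraries held 51529241 UMIs (KO-labelled) and 57028943 UMIs (WT), and the smooth muscle cells a small part of them. Their UMIs per cell ran over 1120, 3029.5 and 9572 (lowest, median and highest) in KO-labelled cells and over 863, 3082 and 7658 in WT cells, which makes 55209 UMIs in all for the KO-labelled group and 153463 for the WT group. The median mitochondrial share was 4.20% in KO-labelled cells and 5.11% in WT cells. The libraries shared 30 barcodes, and none of them belonged to a smooth muscle cell. The sum of the KO-labelled cells therefore rests on few cells, and its deepest cell alone held 17.3% of it, against 4.99% for the deepest WT cell.

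Both of these deepest cells stood apart from the other members. The KO-labelled one, with 9572 UMIs, was marked as a doublet (a droplet with more than 1 cell) by Scrublet, and it held 68 UMIs of Acta2 together with 70 of the 76 KO-labelled UMIs of Cbr2 and all 14, 14, 13 and 12 UMIs of the ciliated-cell genes Sec14l3, Dynlrb2, Ccdc153 and Tmem212. The WT one, with 7658 UMIs, had 2 UMIs of Acta2 and none of Tagln, an actin-bound protein of smooth muscle found in all other members. It held all 102 UMIs of the chemokine Cxcl13, 24 of the 29 WT UMIs of Dcn and 53 of the 103 of Fn1, which are matrix genes of fibroblasts. Several results are given with and without these 2 cells, a choice made after the data were seen. Leaving them out also lowers the totals, from 55209 to 45637 UMIs (KO-labelled) and from 153463 to 145805 UMIs (WT). That raises the ratio of genes with no UMI in them too.

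Plaur itself was counted with 1 UMI in KO-labelled smooth muscle cells and 13 UMIs in WT ones, that is 18.1 and 84.7 CPM (UMIs of a gene over all UMIs of the group, scaled to a common total). The log2 ratio was -2.23 with an interval of -7.63 to 0.51, so a difference was not detectable at this depth. Plaur was counted in other KO-labelled cells too, with 570 UMIs in AT2-marked cells, against 81 UMIs in the AT2-marked cells of the WT library. In adventitial fibroblast-marked cells it had 52 UMIs in the KO-labelled and 258 in the WT library (-0.73, -1.19 to -0.30). The counts in the KO-labelled library therefore did not show the loss of Plaur that the label names. A 3' count outside a deleted stretch does not check a knockout, and the deleted stretch is not given in the labels.

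Smooth muscle cells made up 0.198% of kept cells in the KO-labelled library (0.117 to 0.312) and 0.415% in the WT library (0.303 to 0.555). The log2 ratio of the shares was -1.07 with an interval of -1.95 to -0.25. With at least 4 of the 7 muscle genes required it was -0.79 with an interval of -1.72 to 0.08. Other groups of the 9109 KO-labelled and 10842 WT kept cells differed in number too. Adventitial fibroblast-marked cells numbered 293 (KO-labelled) and 821 (WT), and mesothelial-marked cells 187 and 659. Endothelial-marked cells numbered 1235 and 1861, and AT2-marked cells 4948 and 3306. A lower share in the KO-labelled library was thus not particular to smooth muscle. How digestion and sorting bore on these shares was not tested.

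Of the members, 1 KO-labelled cell and 10 WT cells had exactly 3 muscle genes, and their summed Tagln was 3497 CPM in the KO-labelled cell and 3871 CPM in the WT cells. Just outside, 1 KO-labelled and 2 WT cells met every other limit with 2 muscle genes, at 1919 and 2370 CPM of Tagln. No cell of either library missed the rule by a single Acta2 UMI alone.

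Of the 4 marker genes given for these cells, Acta2, the smooth muscle actin, stood at 15161 CPM in KO-labelled and 19158 CPM in WT smooth muscle cells, and Myh11, the smooth muscle myosin heavy chain, at 4275 and 4066 CPM. Cnn1, the actin-binding calponin, stood at 960 CPM in KO-labelled and 1394 CPM in WT cells, and the intermediate filament protein gene Des at 960 and 1101 CPM. These genes chose the cells, so their levels are a description and no check of the label. The other cell groups were marked by fibroblast, mesothelial, endothelial, epithelial or immune genes. Folds over the highest of them, here and below, were taken after 10 CPM was added to both values, which makes them smaller. Myh11 was 204-fold (KO-labelled) and 202-fold (WT) above the highest other group by this measure.

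Genes that did not enter the rule led the cells as well, described here without a test because the same cells were chosen by muscle genes. Tagln was 110-fold and 147-fold above the highest other group in the KO-labelled and WT libraries, and the regulatory light chain gene Myl9 48.2-fold and 47.2-fold. Myocd, which encodes the transcription factor myocardin, was 45.1-fold above it in KO-labelled cells and 41.7-fold in WT cells. Among the 20 genes that led by this measure were also Actc1, Tpm2, Dmd, Lmcd1, Adcy5, Sh3bgr, Mylk4, Ctnna3, Mustn1 and Gucy1b1. Actc1, the actin of heart muscle, had 1250 CPM in KO-labelled and 2131 CPM in WT smooth muscle cells. It was seen in 12 of 18 KO-labelled and 28 of 45 WT cells, and 73 of its 327 WT UMIs lay in 1 cell. The heart troponin gene Tnnt2 had UMIs in 1 KO-labelled and 4 WT cells.

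Acta2 UMIs were also looked for in cells of other types. Acta2 was seen in 0.222% of 4948 AT2-marked cells of the KO-labelled library and in 1.36% of 3306 in the WT library, at median depths of 6257 and 6543 UMIs. It was seen in 18.8% of 293 KO-labelled and 17.1% of 821 WT adventitial fibroblast-marked cells. Myh11 was seen in 0.341% and 0.731% of those fibroblast-marked cells.

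Markers of other cell types were present in the smooth muscle cells to different degrees. The summed endothelial list had 5 UMIs in KO-labelled and 24 UMIs in WT cells, the mesothelial list 3 and 8, the immune list 13 and 18, and the Schwann cell list 0 and 1. Fibroblast markers, some of which smooth muscle also expresses, were the largest list at 223 UMIs in KO-labelled and 594 UMIs in WT cells (4039 and 3871 CPM). Secretory and surfactant transcripts differed between the libraries. Sftpc, the surfactant protein of AT2 cells, had 851 CPM in KO-labelled and 437 CPM in WT smooth muscle cells. Scgb1a1, the secretoglobin of club cells, had 145 CPM in KO-labelled and 1095 CPM in WT cells. It was spread over 42 of 45 WT cells with at most 8 UMIs in any of them. Their part in the ratios below was not tested. With the genes that led in epithelial cells taken out of the totals, the contractile list kept its ratio of -0.23.

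**Figure D1:**
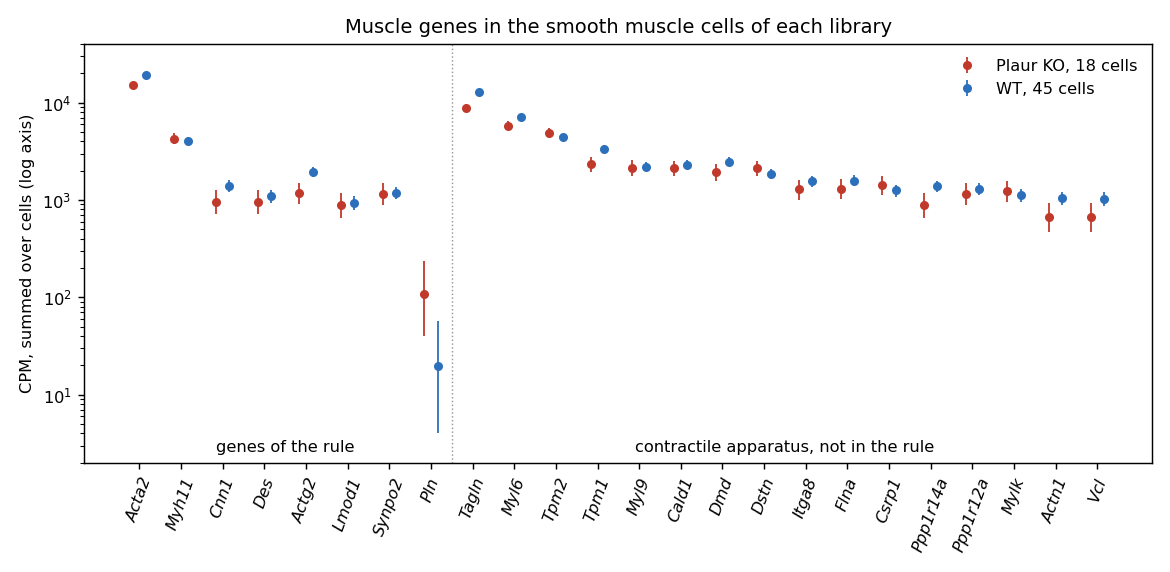
Levels of the 8 genes of the rule (left of the dotted line) and of 16 genes of the contractile apparatus (right of it) in CPM on a log axis, summed over 18 Plaur KO cells (red) and 45 WT cells (blue), with exact 95% counting intervals. Many intervals overlap, while Acta2 (15161 and 19158) and Tagln (8749 and 12928) are lower in the KO-labelled cells.

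The contractile apparatus was expressed at close to the same level in both libraries, with a modest deficit in the KO-labelled cells that lay mostly in Tagln, Tpm1 and Myl6. The list, without the genes of the rule, summed to 45554 CPM in KO-labelled and 53492 CPM in WT smooth muscle cells, a log2 ratio of -0.23 with an interval of -0.30 to -0.17. Without the 2 cells described above it was -0.15 (-0.22 to -0.09). Of its 36 genes, 33 reached 20 UMIs over both libraries, the minimum for a gene to count as measured here. Of these, 0 lay at a log2 ratio of 1 or more and 1 at -1 or less, beside 4.81% and 9.62% of all 1767 measured genes. Those shares are the background for the counts of every list below. The median log2 ratio of the 33 genes was -0.17, and that of all measured genes was -0.07. Scaled by TMM, which trims extreme genes before it sets the totals, the median of all genes moved to -0.35 and that of the list to -0.46, and 37 genes lay past the higher and 272 past the lower fold, against 85 and 170. On both sides a smaller share of its genes lay past this fold than of all genes, a comparison not matched for depth. With a minimum of 50 UMIs, 8 of 620 measured genes lay past the higher and 27 past the lower fold. With every cell thinned to 1000 UMIs the sum stood at -0.07 (-0.19 to 0.04), so the deficit was not detectable at that depth.

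Tagln had 8749 CPM in KO-labelled and 12928 CPM in WT cells, a log2 ratio of -0.56 (-0.71 to -0.42). In single cells it ran over 2298, 8586 and 19289 CPM (lowest, median, highest) in the KO-labelled library and over 0, 12458 and 31142 CPM in the WT library, so the ranges overlapped over most of their length. Tpm1, a tropomyosin that lies along the actin filament, had 2337 CPM in KO-labelled and 3349 CPM in WT cells, a log2 ratio of -0.52 (-0.81 to -0.24). Its relative Tpm2 had 4927 CPM in KO-labelled and 4398 CPM in WT cells, a log2 ratio of 0.16 (-0.04 to 0.37). The interval lay below 0 for Tpm1 and held 0 for Tpm2, which stood at 0.28 (0.07 to 0.49) without the 2 cells that stood apart.

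Myl6, the essential light chain of myosin, had 5814 CPM in KO-labelled and 7116 CPM in WT cells (log2 ratio -0.29, -0.48 to -0.11). The regulatory chain Myl9, which the kinase phosphorylates, was nearly level at 2137 CPM in KO-labelled and 2196 CPM in WT cells (log2 ratio -0.04, -0.35 to 0.27). The kinase gene Mylk had 1232 CPM in KO-labelled and 1114 CPM in WT cells (log2 ratio 0.14, -0.28 to 0.56). Counting error thus covered the ratios of Myl9 and Mylk, which does not show that their levels were equal.

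Other members of the list lay on both sides. Vcl, the vinculin of adhesion plaques, had 670 CPM in KO-labelled and 1023 CPM in WT cells (log2 ratio -0.61, -1.17 to -0.09), and Actn1, an actin cross-linker, 670 and 1043 CPM (-0.64, -1.19 to -0.11). Ilk, the integrin-linked kinase, was the list's only gene past the fold, with 9 UMIs in KO-labelled and 51 UMIs in WT cells (log2 ratio -1.03, -2.24 to 0.01). Dmd, the dystrophin gene, had 1920 CPM in KO-labelled and 2483 CPM in WT cells (log2 ratio -0.37, -0.70 to -0.06). Its sign turned when cells were thinned to 1000 UMIs (0.0448, -0.54 to 0.61) and as a mean over cells (0.0387). Palld, the actin scaffold palladin, was higher with 634 CPM in KO-labelled and 326 CPM in WT cells (log2 ratio 0.96, 0.29 to 1.61).

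The brake on the opposing phosphatase was among the lower genes. Ppp1r14a, which encodes the phosphatase inhibitor CPI-17, had 888 CPM in KO-labelled and 1381 CPM in WT cells (log2 ratio -0.64, -1.12 to -0.18). Its ratio was -0.50 (-0.99 to -0.04) without the 2 cells that stood apart. Of the genes of the rule, Actg2, the enteric smooth muscle actin, had 1177 CPM in KO-labelled and 1929 CPM in WT cells, which is a description since it helped to choose the cells. Pln, the regulator of the calcium pump, came from 1 cell in each library, with 6 UMIs in the KO-labelled and 3 UMIs in the WT cell.

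CArG boxes were looked for in RefSeq promoter windows (GRCm38.p6, 250 bases before and 50 after a transcript start), because the contractile genes are the classic targets of serum response factor. The consensus was searched without mismatches, and it reads the same on both strands. It was present in 7 of 43 windows of the contractile list (16.3%) and in 535 of all 32851 windows (1.63%). The 7 windows belonged to 6 genes, Dmd, Filip1l, Ldb3, Myl6, Myl9 and Vcl. None of the 6 windows of the rule's genes held it, which says only that this spelling is not in these windows. The windows of Myl9, Myl6, Vcl and Actc1 are shown, with the box in capitals, as examples among the muscle genes described above. Actc1 belongs to the heart muscle list.
Myl9, chr2:156775214-156775513, plus strand: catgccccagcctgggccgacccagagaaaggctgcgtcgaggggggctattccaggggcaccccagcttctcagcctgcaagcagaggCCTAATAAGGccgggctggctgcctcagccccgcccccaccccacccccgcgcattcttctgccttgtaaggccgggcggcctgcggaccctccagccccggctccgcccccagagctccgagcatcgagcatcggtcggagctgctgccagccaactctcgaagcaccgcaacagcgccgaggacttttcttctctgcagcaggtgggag
Myl6, chr10:128492960-128493259, minus strand: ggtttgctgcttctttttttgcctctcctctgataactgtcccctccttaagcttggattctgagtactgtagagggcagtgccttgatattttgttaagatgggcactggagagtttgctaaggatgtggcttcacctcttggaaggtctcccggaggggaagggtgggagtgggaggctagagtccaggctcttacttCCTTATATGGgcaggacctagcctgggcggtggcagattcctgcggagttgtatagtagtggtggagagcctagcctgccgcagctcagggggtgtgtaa
Vcl, chr14:20929148-20929447, plus strand: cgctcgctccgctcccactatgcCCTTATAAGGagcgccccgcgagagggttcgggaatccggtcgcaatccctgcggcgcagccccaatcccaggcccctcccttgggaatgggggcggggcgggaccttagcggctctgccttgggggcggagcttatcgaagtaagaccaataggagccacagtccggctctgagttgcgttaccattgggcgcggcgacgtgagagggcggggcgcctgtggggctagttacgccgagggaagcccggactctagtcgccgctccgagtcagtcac
Actc1, chr2:114052826-114053125, minus strand: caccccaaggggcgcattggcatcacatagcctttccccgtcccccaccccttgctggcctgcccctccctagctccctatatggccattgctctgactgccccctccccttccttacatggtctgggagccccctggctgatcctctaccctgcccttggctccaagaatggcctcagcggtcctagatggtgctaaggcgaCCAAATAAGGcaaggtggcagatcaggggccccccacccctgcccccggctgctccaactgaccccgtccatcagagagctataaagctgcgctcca
The box began 161 bases before the start of Myl9, 50 before that of Myl6, 227 before that of Vcl and 47 before that of Actc1. The log2 ratio of Actc1, not given above, was -0.77 (-1.17 to -0.39).

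Transcription factors of the muscle programme were counted at low depth, and 2 of them were higher in the KO-labelled cells. Of 28 factors, 8 were measured, 2 at a log2 ratio of 1 or more and 1 at -1 or less, beside 4.81% and 9.62% of all measured genes. Nr2f2, which encodes the factor COUP-TFII, known for its role in vein identity, had 17 UMIs in 9 of 18 KO-labelled cells and 12 UMIs in 11 of 45 WT cells (log2 ratio 1.98, 0.83 to 3.18). Prdm6, a repressor expressed in vascular smooth muscle, had 18 UMIs in KO-labelled and 21 UMIs in WT cells (log2 ratio 1.25, 0.26 to 2.23). Both kept an interval above 0 without the 2 cells that stood apart, at 2.09 (0.92 to 3.30) for Nr2f2 and 1.19 (0.13 to 2.22) for Prdm6. With TMM scaling and all cells, the interval of Prdm6 held 0. Myocd had 634 CPM in KO-labelled and 873 CPM in WT cells (log2 ratio -0.46, -1.04 to 0.08). A single WT cell held 35 of its 134 WT UMIs, together with 71 of 188 UMIs of Pde3a, a phosphodiesterase of cyclic nucleotides. Tead1 was the factor past the lower fold, with 3 UMIs in KO-labelled and 20 UMIs in WT cells (log2 ratio -1.26, -3.66 to 0.49).

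Most cells held more UMIs of vascular than of airway muscle markers. Genes known from vascular smooth muscle (21 genes outside the pericyte list, among them Notch3, Mustn1 and Mcam) outnumbered those known from airway muscle and myofibroblasts (17 genes without Actg2, among them Lgr6, Hhip and Aspn) in 16 of 18 KO-labelled and 41 of 45 WT cells. Airway genes led in 1 KO-labelled and 4 WT cells, and 1 KO-labelled cell had the same number of both. The vascular genes gave 4, 8 and 24 UMIs per cell (lowest, median, highest) in KO-labelled cells and 1, 11 and 54 UMIs in WT cells. The airway genes gave 0, 2 and 8 UMIs in KO-labelled cells and 0, 1 and 27 UMIs in WT cells. The WT cell with 27 airway UMIs was the one without Tagln, and 24 of its 27 came from Enpp2, the gene of the lysophospholipase autotaxin. Actg2, left out as a gene of the rule, had 65 UMIs in KO-labelled and 296 UMIs in WT cells. Both lists were also read in adventitial fibroblast-marked cells. The vascular list with its pericyte genes summed there to 1373 CPM (KO-labelled) and 1004 CPM (WT), below its 3604 and 4138 CPM in smooth muscle cells. The airway list summed there to 1656 CPM (KO-labelled) and 1543 CPM (WT), above its 634 and 671 CPM in smooth muscle cells. The lists differ in length and in how deeply their genes are read. The counts therefore do not give a share of airway muscle or settle which cells were vascular.

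**Figure D2:**
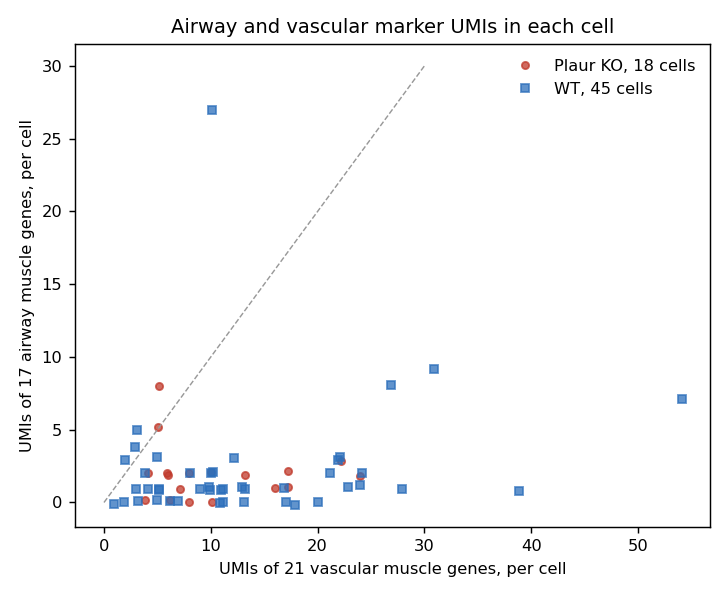
UMIs of 17 airway muscle genes (vertical axis) against UMIs of 21 vascular muscle genes (horizontal axis) in each of 18 Plaur KO cells (red circles) and 45 WT cells (blue squares), spread slightly to part overlapping points, with equal counts along the dashed line. Most cells lie below the line, and the WT cell at 27 airway UMIs is the member without a Tagln UMI.

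Neither list differed between the libraries beyond counting error when scaled by total UMIs. The whole vascular list of 23 genes, with Pdgfrb and Kcnk3, summed to 3604 CPM in KO-labelled and 4138 CPM in WT cells (log2 ratio -0.20, -0.44 to 0.03), or -0.49 (-0.72 to -0.25) with TMM scaling, with 0 of 10 measured genes past the fold. Mustn1, a small muscle nuclear protein, had 942 CPM in KO-labelled and 997 CPM in WT cells (-0.08, -0.56 to 0.38), and the adhesion molecule Mcam 290 and 293 CPM. Crispld2, a secreted protein, had 453 CPM in KO-labelled and 782 CPM in WT cells (-0.79, -1.47 to -0.16). Its interval held 0 without the 2 cells that stood apart (-0.59, -1.27 to 0.04). They held none of its UMIs, so only the totals moved it. The airway list had 35 UMIs in KO-labelled and 103 UMIs in WT cells (log2 ratio -0.08, -0.68 to 0.48). Without the 2 cells that stood apart its ratio was 0.47 (-0.16 to 1.08), so its sign rests on the Enpp2 of 1 cell. Pericyte markers summed to 1703 CPM in KO-labelled and 1720 CPM in WT cells, and the pericyte genes Higd1b and Cox4i2 had 0 and 1 UMI in KO-labelled cells and 8 each in WT cells. A single WT cell held 7 of the 8 Cox4i2 and 4 of the 8 Higd1b UMIs.

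Receptors that set tone were at the edge of detection. Of 36 receptors that contract muscle, 18 had no UMI in either library and 2 were measured. The endothelin receptor gene Ednra had 5 UMIs in KO-labelled and 15 UMIs in WT cells (log2 ratio -0.11, -1.92 to 1.42), and the ATP-gated channel P2rx1 had 5 and 16 (-0.20, -2.01 to 1.31). The muscarinic receptors, named here for their part in airway narrowing after their values were seen, had 2 UMIs (Chrm2) and 0 UMIs (Chrm3) in KO-labelled cells, against 1 and 2 UMIs in WT cells. Airway reactivity to muscarinic agents cannot be followed through these counts.

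Relaxing receptors gave slightly more. The sum of that list was 1177 CPM in KO-labelled and 925 CPM in WT cells (log2 ratio 0.35, -0.10 to 0.78). Ramp1, a partner of the CGRP receptor, had 417 CPM in KO-labelled and 306 CPM in WT cells (0.44, -0.34 to 1.19). The nitric oxide-sensing guanylyl cyclase genes Gucy1a1 and Gucy1b1 stood at 235 and 272 CPM in KO-labelled cells and at 150 and 313 CPM in WT cells, with intervals that held 0. Calcium and potassium handling summed to a log2 ratio of 0.09 (-0.09 to 0.26), or -0.20 (-0.38 to -0.03) with TMM scaling, with 0 of 14 measured genes past the fold. Cacna1c, the L-type calcium channel, had 1195 CPM in KO-labelled and 951 CPM in WT cells (0.33, -0.11 to 0.76), and Slc8a1, the sodium-calcium exchanger, 471 and 749 CPM (-0.67, -1.34 to -0.05). Without the 2 cells that stood apart both calls changed, with Cacna1c at 0.50 (0.05 to 0.93) and Slc8a1 at -0.53 (-1.24 to 0.11). Cacna1c kept 64 of 66 KO-labelled and 145 of 146 WT UMIs, and Slc8a1 24 of 26 and 111 of 115. These changes thus came mainly with the lower totals.

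The RhoA, cGMP and cAMP list differed little. Its sum was 7988 CPM in KO-labelled and 8810 CPM in WT cells (log2 ratio -0.14, -0.30 to 0.01), or -0.43 (-0.59 to -0.27) with TMM scaling, and 0 of 17 measured genes lay past the fold. Rock1, the kinase downstream of RhoA, had 1069 CPM in KO-labelled and 1186 CPM in WT cells. Prkg1, the cGMP-dependent kinase that relaxes muscle, had 1286 CPM in KO-labelled and 1238 CPM in WT cells (0.05, -0.36 to 0.46). Pde3a was lower, at 670 CPM in KO-labelled and 1225 CPM in WT cells (-0.87, -1.42 to -0.36), but with every cell thinned to 1000 UMIs its ratio was 0.05.

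**Figure D3:**
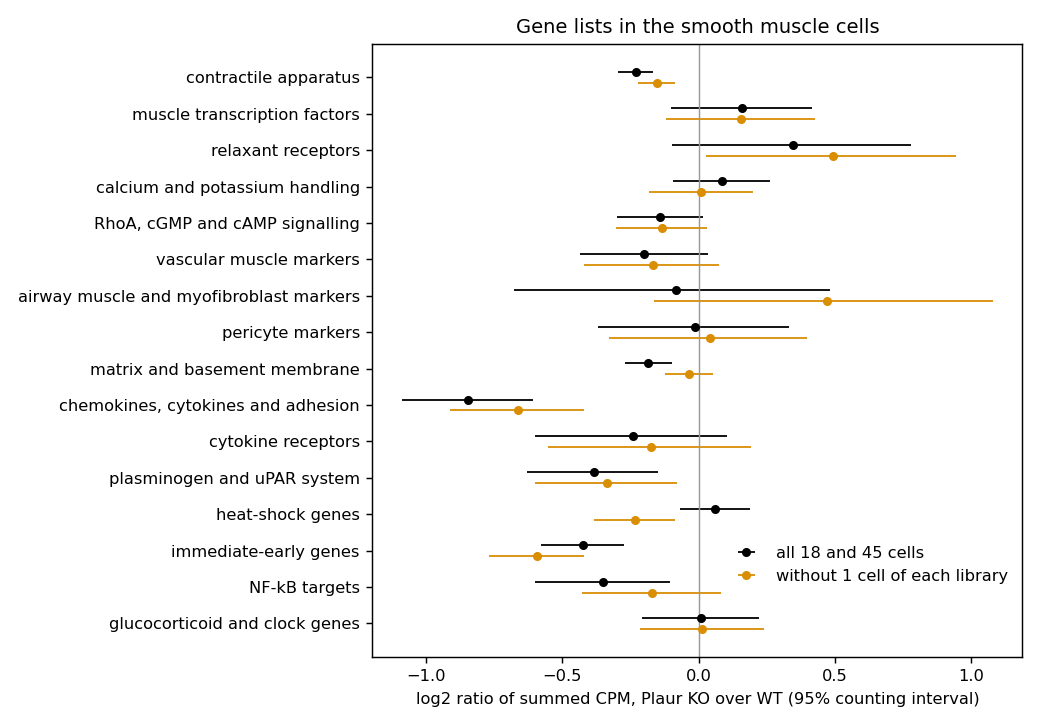
Log2 ratio of summed CPM, Plaur KO over WT, for 16 gene lists in smooth muscle cells, with exact 95% counting intervals, for all 18 and 45 cells (black) and without the 2 cells that stood apart (orange). The chemokine list lies lowest at -0.85, the contractile list sits at -0.23, and the heat-shock list moves to -0.23 when the 2 cells are left out.

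Among matrix genes scaled by total UMIs, Eln and Timp3 were higher, and Ccn1, Ccn2 and Thbs1 lower, in the KO-labelled cells. Of 63 genes, 44 were measured, 1 at a log2 ratio of 1 or more (Adamts5) and 6 at -1 or less, beside 4.81% and 9.62% of all measured genes, to which these shares lie near. The median was -0.20. Eln, which encodes elastin, had 2192 CPM in KO-labelled and 1473 CPM in WT cells (log2 ratio 0.57, 0.24 to 0.90). In single cells it ran over 0, 1611 and 6560 CPM in the KO-labelled library and over 0, 1052 and 4597 CPM in the WT library, so the medians differed and the ranges overlapped. Timp3, a matrix-bound inhibitor of metalloproteinases, had 1377 CPM in KO-labelled and 938 CPM in WT cells (0.55, 0.13 to 0.96). With TMM scaling Eln stood at 0.29 and Timp3 at 0.27, and both intervals held 0.

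On the lower side stood Ccn2, Ccn1 and Thbs1, which are targets of mechanical and TGF-beta signals. Ccn2 had 2626 CPM in KO-labelled and 3779 CPM in WT cells (log2 ratio -0.53, -0.80 to -0.26), Ccn1 779 and 1316 CPM (-0.76, -1.27 to -0.28), and Thbs1 1431 and 2183 CPM (-0.61, -0.98 to -0.25). Without the 2 cells that stood apart the values were -0.36 (-0.64 to -0.10) for Ccn2, -0.66 (-1.19 to -0.17) for Ccn1 and -0.43 (-0.80 to -0.07) for Thbs1. The 6 genes past the lower fold were Ltbp2, Vcan, Mfap5, Dcn, Fn1 and Ltbp4. The intervals of Vcan (-1.91, -5.04 to 0.10) and Ltbp4 (-1.10, -2.49 to 0.05) held 0 without the 2 cells, which held no UMI of either gene. Ltbp2, a latent TGF-beta binding protein relative, had 2 UMIs in KO-labelled and 28 UMIs in WT cells (-2.33, -5.45 to -0.34), of which 12 lay in 1 WT cell. The deficits of Fn1 and Dcn came from the cell without Tagln: without the 2 cells Fn1 stood at -0.16 (-1.13 to 0.72) and Dcn at 0.94 (-1.75 to 3.30). Mfap5 was also a limit gene of the rule. The summed list was at -0.18 (-0.27 to -0.10) with all cells and at -0.03 (-0.12 to 0.05) without the 2.

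Chemokine transcripts in this muscle were concentrated in a few cells. The list summed to 3152 CPM in KO-labelled and 5663 CPM in WT cells (log2 ratio -0.85, -1.09 to -0.61). Of 10 measured genes 1 lay past the higher and 5 past the lower fold, beside 4.81% and 9.62% of all measured genes. Ccl2, the monocyte chemokine, had 42 UMIs in KO-labelled cells, 41 of them in 1 cell, and 186 UMIs in WT cells, 172 of them in 1 cell. Its ratio was -0.67 (-1.19 to -0.18), and -0.47 (-0.99 to 0.02) without the 2 cells that stood apart, which held none of its UMIs. The WT cell with 172 Ccl2 UMIs also held 21 of the 22 WT UMIs of Ccl7. It held 122 of the 224 WT UMIs of Cxcl10, the interferon-induced T cell chemokine. The KO-labelled cell also held all 41 KO-labelled UMIs of the neutrophil chemokine Cxcl1, which had 49 UMIs over 11 WT cells. Another WT cell held 23 of the 24 WT UMIs of Il6.

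Cxcl10 stood at 3 UMIs in 2 KO-labelled cells and at 224 UMIs in 9 WT cells (log2 ratio -4.75, -7.04 to -3.18). Thinned to 1000 UMIs per cell, it was seen in 11.1% of 18 KO-labelled cells (1.38 to 34.7) and 20.9% of 43 WT cells (10.0 to 36.0), with 2 WT cells too shallow to thin. The shares overlapped widely, so the ratio rests on how much a few WT cells held. Iigp1, an interferon-induced GTPase outside the lists, had 5 UMIs in KO-labelled and 77 UMIs in WT cells (log2 ratio -2.47, -4.13 to -1.19). Tgfb2, the transforming growth factor, was less concentrated, with 9 UMIs over 7 KO-labelled cells and 83 UMIs over 19 WT cells, 28 of them in 1 cell (-1.73, -2.91 to -0.74). Il33, the alarmin of type 2 allergy, had 0 UMIs in KO-labelled and 3 UMIs in WT smooth muscle cells, and Ptgis, the prostacyclin synthase of vessel walls, had 652 and 821 CPM (-0.33, -0.91 to 0.21).

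The cytokine receptor list summed to a log2 ratio of -0.24 (-0.60 to 0.10), or -0.53 (-0.89 to -0.18) with TMM scaling. Il1r1, the interleukin 1 receptor, was its 1 gene past the lower fold among 7 measured, beside 9.62% of all measured genes. It had 6 UMIs in KO-labelled and 54 UMIs in WT cells (-1.70, -3.20 to -0.48), and 19 of the WT UMIs lay in 1 cell. Of the IL-4 and IL-13 response genes 3 of 22 were measured (Postn, Tgm2 and Fn1). Postn, the matrix protein periostin, had 380 CPM in KO-labelled and 450 CPM in WT cells, and Tgm2, a transglutaminase, 290 and 456 CPM, with intervals that held 0.

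The plasminogen and uPAR system summed to 3333 CPM in KO-labelled and 4353 CPM in WT cells (log2 ratio -0.39, -0.63 to -0.15), with 0 of 9 measured genes past the fold. Itgb1, the integrin beta chain that pairs with many alpha chains, had the highest level at 1214 CPM in KO-labelled and 1649 CPM in WT cells (-0.44, -0.85 to -0.05), and its interval held 0 without the 2 cells that stood apart (-0.35, -0.78 to 0.06). The plasminogen-binding pair Anxa2 and S100a10 had 290 and 362 CPM in KO-labelled cells against 417 and 586 CPM in WT cells, where the cell without Tagln held 16 of 64 Anxa2 and 23 of 90 S100a10 UMIs. The ratio of S100a10 was -0.70 (-1.47 to 0.02) and moved to -0.22 (-1.06 to 0.55) without the 2 cells. The gene of urokinase itself, Plau, had no UMI in either group.

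Of 19 measured immediate-early genes, 4 had a ratio above 0, beside 809 of all 1767 measured genes. The list summed to 8151 CPM in KO-labelled and 10941 CPM in WT cells (log2 ratio -0.42, -0.58 to -0.27), and 1 gene lay past the higher fold (Jun) and 3 past the lower (Fos, Fosl2 and Egr1), beside 4.81% and 9.62% of all genes. Fos, an AP-1 subunit, had 761 CPM in KO-labelled and 1551 CPM in WT cells (-1.03, -1.54 to -0.55), and 20 of its 42 KO-labelled UMIs lay in the marked doublet. Without the 2 cells that stood apart its ratio was -1.74 (-2.44 to -1.10), and with cells thinned to 1000 UMIs -0.64 (-1.57 to 0.20). Egr1, an early growth response factor, had 435 CPM in KO-labelled and 1017 CPM in WT cells (-1.23, -1.91 to -0.60). Jun, the partner of Fos, had 1377 CPM in KO-labelled and 639 CPM in WT cells (1.11, 0.66 to 1.56), with 28 of its 76 KO-labelled UMIs in the marked doublet. Without the 2 cells it stood at 0.77 (0.23 to 1.29), and after thinning at -0.02 (-0.87 to 0.78).

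The small heat-shock protein Hspb1, an actin-associated chaperone of muscle, was lower in the KO-labelled cells. The larger chaperone Hspa8 was higher, and Hsp90aa1 changed sign with the cells used. Hspb1 had 2192 CPM in KO-labelled and 4789 CPM in WT cells (log2 ratio -1.13, -1.42 to -0.85). In single cells it ran over 0, 2114 and 6997 CPM (lowest, median, highest) in the KO-labelled library and over 0, 2705 and 31142 CPM in the WT library, so the highest WT cells lay above every KO-labelled one while the medians were near each other. Without the 2 cells that stood apart it was -0.99 (-1.28 to -0.70), and after thinning -1.32 (-1.87 to -0.81). Hspa8, the constitutive HSP70, had 1685 CPM in KO-labelled and 906 CPM in WT cells (0.90, 0.50 to 1.28), and 0.76 (0.31 to 1.20) without the 2 cells. Hsp90aa1, the inducible HSP90, had 2029 CPM in KO-labelled and 1414 CPM in WT cells, but 64 of its 112 KO-labelled UMIs lay in the marked doublet, and without the 2 cells its ratio was -0.48 (-0.96 to -0.02). The whole list of 15 measured genes had a median of 0.47 and a sum of 0.06 (-0.07 to 0.19), or -0.23 (-0.36 to -0.10) with TMM scaling. Hspb1 alone held 121 of its 682 KO-labelled UMIs and 735 of its 1819 WT UMIs.

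**Figure D4:**
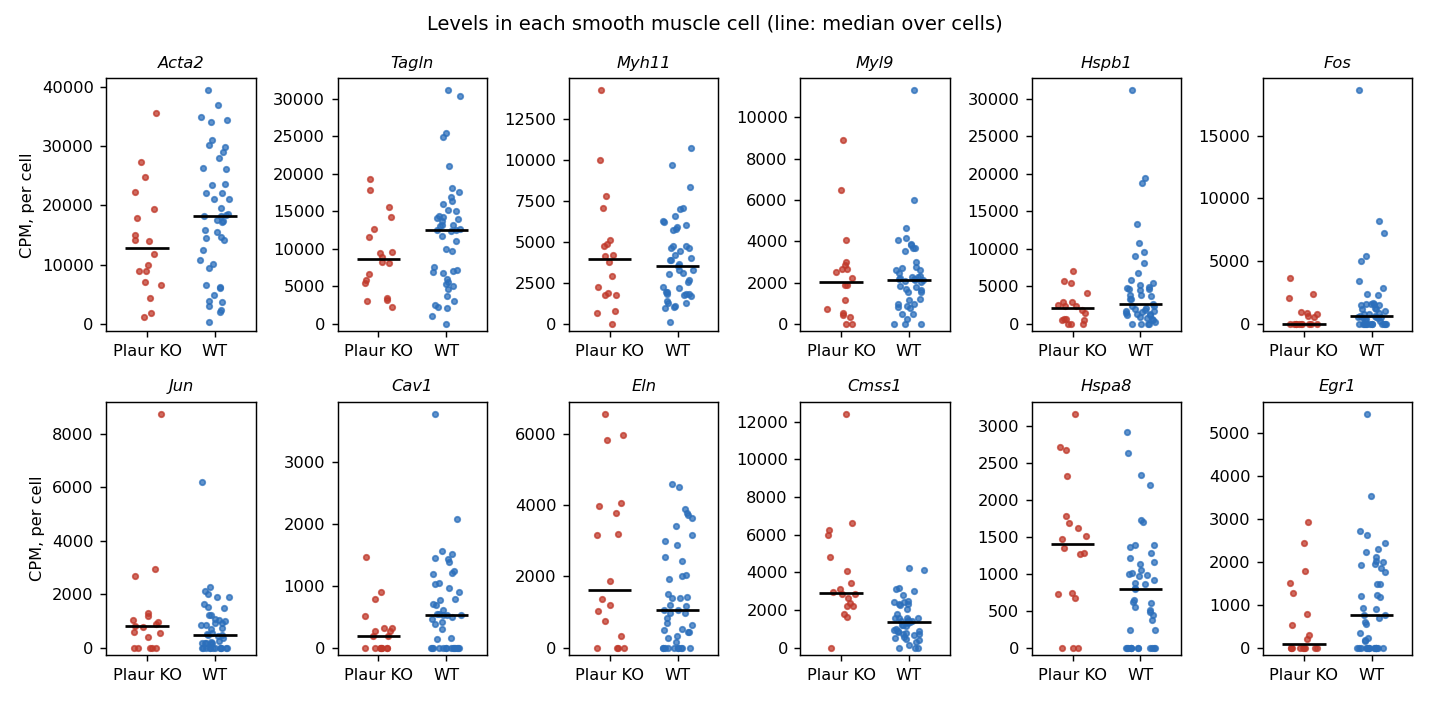
CPM of 12 genes in each of 18 Plaur KO cells (red) and 45 WT cells (blue), with the median over cells as a line. The Hspb1 medians are close (2114 and 2705 CPM) while WT cells reach 31142, and the Cmss1 medians are 2898 in KO-labelled and 1356 in WT cells.

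Clock and glucocorticoid genes summed to a log2 ratio of 0.01 (-0.21 to 0.22), or -0.28 (-0.49 to -0.07) with TMM scaling, with 0 of 7 measured genes past the fold. The metallothionein Mt1 had 2029 CPM in KO-labelled and 2248 CPM in WT cells (-0.15, -0.47 to 0.16). In the KO-labelled cells 54 of its 112 UMIs came from 1 cell, and it was seen in 8 of 18 KO-labelled and 37 of 45 WT cells.

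Outside the lists, genes with 50 UMIs or more were ranked by their ratio. The highest, Cbr2 (log2 ratio 3.72) and Tubb4b (2.04), came from the marked doublet and stood at 0.35 (-1.30 to 1.80) and 0.02 (-1.45 to 1.30) without the 2 cells. Cmss1, a gene linked to ribosome assembly, had 3206 CPM in KO-labelled and 1251 CPM in WT cells (1.36, 1.05 to 1.66) and was seen in 17 of 18 KO-labelled and 42 of 45 WT cells. Dgkb, a diacylglycerol kinase, had 507 CPM in KO-labelled and 248 CPM in WT cells (1.03, 0.28 to 1.78). Its interval held 0 with TMM scaling. Macf1, a linker of microtubules and actin, had 906 and 495 CPM (0.87, 0.33 to 1.40). Pdgfd, a platelet-derived growth factor, had 20 UMIs in KO-labelled and 30 UMIs in WT cells (0.89), with an interval that reached 0. It stood at 1.09 (0.20 to 1.95) without the 2 cells, which held none of its UMIs.

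Among the lowest of these genes was Cav1, the coat protein of caveolae, which are dense on smooth muscle, with 254 CPM in KO-labelled and 775 CPM in WT cells (log2 ratio -1.61, -2.53 to -0.81). It was seen in 10 of 18 KO-labelled and 31 of 45 WT cells, and stood at -1.75 (-2.79 to -0.86) without the 2 cells and at -1.12 (-2.86 to 0.28) after thinning. Dlc1, a RhoA GTPase-activating protein, had 8 UMIs in KO-labelled and 60 UMIs in WT cells (-1.43, -2.71 to -0.36). Enah, an actin elongation factor, had 398 CPM in KO-labelled and 932 CPM in WT cells (-1.23, -1.94 to -0.57), and Actr3, a subunit of the actin-branching Arp2/3 complex, 163 and 417 CPM (-1.36, -2.55 to -0.34). A single WT cell with 3908 UMIs held 38 of the 143 WT UMIs of Enah and 14 of the 60 of Dlc1. It was also the WT cell with most UMIs of Vcl (24 of 157), Actn1 (16 of 160), Dmd (64 of 381) and Tgfb2 (28 of 83). The Myocd and Pde3a UMIs of 1 WT cell given above were its own. Ratios without it were not computed. Ccn3, a matricellular relative of Ccn2, had 7 UMIs in KO-labelled and 68 UMIs in WT cells (-1.81, -3.17 to -0.68), and Itih4, a hyaluronan-binding inhibitor, 15 and 114 UMIs (-1.45, -2.33 to -0.67).

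The same ratios in other cells of the libraries set these values in context, without a test of the difference between cell groups. Cmss1 was higher in the KO-labelled library in smooth muscle (1.36), in adventitial fibroblast-marked (1.24) and in AT2-marked cells (1.18). Hspa8 behaved likewise, at 0.90 in smooth muscle, 0.71 in adventitial fibroblast-marked and 0.94 in AT2-marked cells. Hspa8 and Cmss1 were above 0 in the mesothelial-marked (0.93 and 1.06), endothelial-marked (1.13 and 0.92) and alveolar fibroblast-marked cells (0.97 and 1.04) as well. Egr1 was lower in smooth muscle (-1.23), adventitial fibroblast-marked (-1.06) and endothelial-marked cells (-1.26), and closer to 0 in mesothelial-marked (-0.40) and AT2-marked cells (-0.20).

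Other genes had another sign or size elsewhere. Hspb1 stood at -1.13 (-1.42 to -0.85) in smooth muscle, at 0.85 (0.73 to 0.98) in adventitial fibroblast-marked cells and at 0.63 (0.56 to 0.70) in endothelial-marked cells. Cav1 stood at -1.61 (-2.53 to -0.81) in smooth muscle, at 0.01 (-0.07 to 0.09) in endothelial-marked cells, where it had 943 CPM in the KO-labelled and 935 CPM in the WT library, and at -0.25 (-0.38 to -0.12) in mesothelial-marked cells. Jun stood at 1.11 (0.66 to 1.56) in smooth muscle and at 0.00 (-0.02 to 0.03) in AT2-marked cells. Eln stood at 0.57 (0.24 to 0.90) in smooth muscle, at 0.43 (0.35 to 0.52) in adventitial fibroblast-marked cells and at -0.89 (-1.06 to -0.72) in alveolar fibroblast-marked cells.

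**Figure D5:**
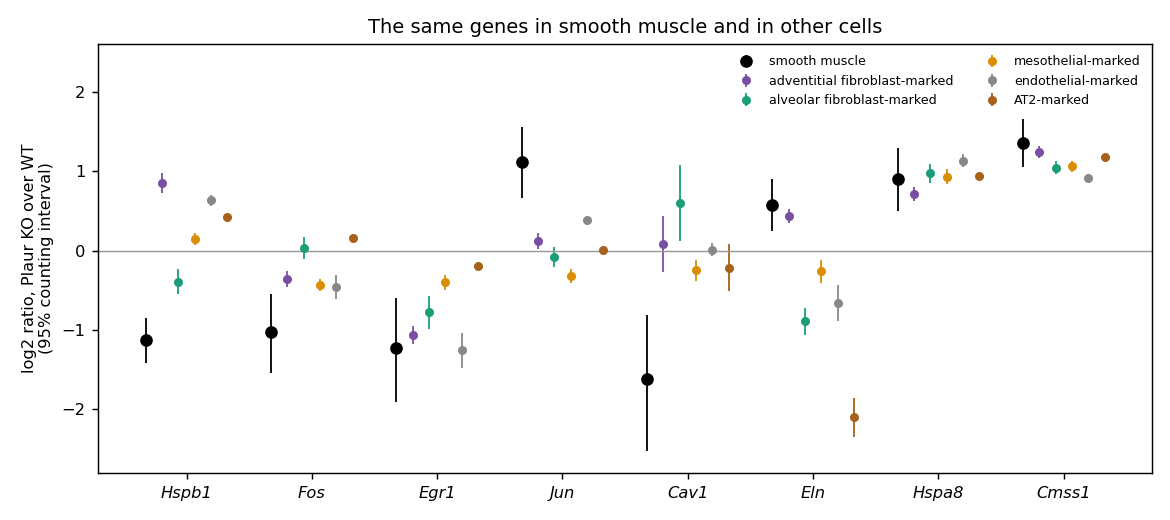
Log2 ratio, Plaur KO over WT, of 8 genes in smooth muscle cells (large black points) and in 5 other groups of cells (small points), with exact 95% counting intervals. Hspb1 is at -1.13 in smooth muscle and at 0.85 in adventitial fibroblast-marked cells, while Cmss1 and Hspa8 lie above 0 in all 6 groups.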

How the data were processed

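The deposited matrices hold whole, unnormalized UMI counts for every gene and barcode. Cell Ranger 7.0.0 made them, per the file headers, and the submitters' processing notes list versions 7.0.0 and 7.1.0 and the build mm10. How barcodes were called and whether intronic reads counted is not given in the sources used here. Per the labels about 16000 cells were loaded per library for an aim of 10000. The cell rule, lists and members were chosen with earlier results of these data known. Smooth muscle cells were found per library by the rule given above, UMIs were summed over them and divided by their total (CPM). Ratios carry exact conditional binomial 95% intervals, CPM exact Poisson and shares Clopper-Pearson intervals. A gene with no UMI stands at a floor of 3 UMIs. Genes named are, per list, the 4 with the highest CPM and the 3 highest and 3 lowest ratios among those with 20 UMIs, the 20 leading genes, the genes of the rule and, outside the lists, the 10 highest and 10 lowest with 50 UMIs; others, such as further members of a list, were named after their values were seen. Scrublet (scanpy 1.11.5, expected share 8%) marked 175 cells (1.92%) in the KO-labelled and 617 (5.69%) in the WT library. Doublets were kept unless stated. Ambient RNA was not removed. TMM factors came from edgeR 4.0.16. The ratios and intervals were tested on simulated Poisson counts of the summed groups, which is the error the intervals assume. The simulation held no spread between cells, so it cannot check the intervals against that spread. Of 32285 gene identifiers 32158 were found in GENCODE M21 (GRCm38). Promoter windows are RefSeq's. Some members of the lists are not reported here by name.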

Additional observations from a re-analysis of the deposited data

How the results depend on the processing

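No paired analysis was possible because each genotype had 1 library. The ratio of the share of smooth muscle cells kept its direction under every alternative run, between -1.50 and -0.79. The contractile sum (-0.23) stayed below 0 as well, at -0.32 with at least 4 muscle genes, -0.0904 without Scrublet-marked cells, -0.15 without the 2 cells that stood apart, -0.52 with TMM scaling, -0.0735 thinned to 1000 UMIs and -0.10 as a mean over cells. Genes past the higher and lower fold numbered 37 and 272 with TMM, 10 and 43 thinned (468 measured), 327 and 412 with a minimum of 10 UMIs (3546 measured), and 8 and 27 with a minimum of 50 (620 measured), and 129 and 217 as a mean over cells. For the 57 of 103 named genes whose interval lay clear of 0, 833 of 852 recomputed ratios kept their sign and 19 turned, in 8 genes. The alternatives largely reuse the same UMIs, so agreement in sign was partly fixed in advance. A limit of under 2% epithelial marker UMIs left out no member. TMM and the other totals each moved every ratio by the same amount. Dcn stood at 0.72 and Enpp2 at 1.04 with at least 5 Acta2 UMIs, at 1.31 and 0.89 with at least 4 muscle genes, at 0.66 and 0.99 without the cell lacking Tagln, and at 0.94 and 1.26 without both cells. Hsp90aa1 stood at -0.43 without Scrublet-marked cells, -0.48 without both cells and -0.0169 as a mean over cells. Thinning turned Cxcl1 (-0.18), Dcn (0.26), Dmd (0.0448), Hsp90aa1 (-0.00669), Jun (-0.0193), Pde3a (0.0469) and Tubb4b (-1.07), and the mean over cells turned Dmd (0.0387). Dcn, Enpp2 and Hsp90aa1 had most UMIs of 1 library in a removed cell. Removal also lowered the totals, which moved the ratios of genes with no UMI in those cells too. The other causes were not tested. Depth is a limit beside the lack of replicates: 18 KO-labelled cells leave most receptors and transcription factors below 20 UMIs.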

Other observations

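NF-kB target genes summed to 3170 CPM in KO-labelled and 4040 CPM in WT smooth muscle cells, a log2 ratio of -0.35 (-0.60 to -0.11), and to -0.17 (-0.43 to 0.08) without the 2 cells that stood apart. Nfkbia, the inhibitor that NF-kB itself induces, had 380 CPM in KO-labelled and 528 CPM in WT cells (-0.47, -1.24 to 0.23), and Vcam1, an adhesion molecule for leukocytes, 217 and 261 CPM (-0.26, -1.33 to 0.70). Fibroblast markers summed to a ratio of 0.06 (-0.17 to 0.29) with all cells, 0.30 (0.06 to 0.54) without the 2 cells and -0.23 (-0.45 to -0.00) with TMM scaling. Col1a2 and Col3a1, fibrillar collagen genes, had 616 and 851 CPM in KO-labelled cells, against 815 and 1030 CPM in WT cells, with intervals that held 0. Airway epithelial markers stood at 86 UMIs in KO-labelled and 189 UMIs in WT cells, and at 15 and 180 UMIs without the 2 cells. Of 18 cell cycle genes 1 was measured, the histone variant gene H2afz, with 254 CPM in KO-labelled and 150 CPM in WT cells (0.76, -0.31 to 1.78).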
